A study of Rattus norvegicus with 24 samples.

Results

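The genes described here encode the membrane skeleton of the red blood cell and the proteins that tie it to the membrane. Of 9 genes named (Sptb, Ank1, Slc4a1, Epb41, Epb42, Add2, Dmtn, Tmod1 and Rhag), 7 were found by their exact symbol on the array and Epb41 by its older symbol Epb4.1, which gave 8 genes and 11 probes of 30367 that are not controls. Ank1 was not analysed here. The genes were chosen by their known role and with log2 ratios of these arrays in view, and Add2 was selected on its low level on the G1 diet without LPS. Therefore the comparison of C-G1 with C-G0 is given below as a description with no test.

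Beneath the membrane of a red cell, spectrin tetramers form a lattice that is held together at junctions with short actin filaments. Beta-spectrin, adducin, dematin, tropomodulin and the product of Epb41 meet at these junctions, and ankyrin and the product of Epb42 fasten the lattice to band 3, the anion exchanger. Inherited defects of these proteins give spherical or elliptical, fragile red cells. Mature mammalian red cells have no nucleus, so in blood the RNA of such genes is carried mainly by reticulocytes, the youngest circulating red cells.

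Blood RNA of single male Sprague-Dawley rats, 8 weeks old at the start and fed for 6 weeks, was hybridised to 24 two-colour arrays against 1 common pool of blood RNA from rats of the same experiment. All rats received a semi-synthetic diet, plain (G0) or with oat beta-glucan of high (G1) or low (G2) molecular weight, and were injected in the tail vein with saline (C) or with E. coli lipopolysaccharide at 10 mg/kg (LPS), which induces enteritis. The 6 groups C-G0, LPS-G0, C-G1, LPS-G1, C-G2 and LPS-G2 had 4 arrays each. In 2 arrays of LPS-G0 (replicates 3 and 4) the title names an LPS injection while another field of the labels says control, and they were kept in the group of the title.

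All values are log2 ratios of the Cy3 signal (rat) over the Cy5 signal (pool), so a level of 0 equals the pool. The labels give Cy3 as the rat RNA, whereas the study's methods name the opposite dyes. Cy3 was taken as the rat, and its median SD over arrays was 0.38 against 0.26 in Cy5 over 7074 probes. Cy3 also had fewer probes well above background than Cy5 on each array, so this spread alone does not settle the dyes. The study lists Dmtn as higher with LPS and, among LPS rats, lower on the G1 diet, the directions found here with Cy3. Every sign below would turn with the dyes. The pool came from the same kind of rats, and the log ratios of single arrays correlated with each other at −0.54 to 0.61. The number of probes well above background in Cy3 ran from 7786 to 15385 over the arrays, and each of the 3 slides held all 6 groups. C-G1 replicate 2 stood apart from the other arrays, being the lowest C-G1 array in 7 of 8 genes. The defining erythroid genes Alas2 (haem synthesis) and Hbb (beta-globin) were well above background on 24 of 24 arrays.

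The sequences shown are those that the values below rest on or bear on. The first is the probe of Epb42, 1 of the 2 members called in LPS-G1 vs. LPS-G0 (rn4, chr3:107808613-107808672, minus strand). The second is the main probe of Sptb, whose 60 bases map to 467 bases of the minus strand (rn4, chr6:99196669-99197135).
Epb42 probe: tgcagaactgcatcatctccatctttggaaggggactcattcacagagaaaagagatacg
Sptb probe: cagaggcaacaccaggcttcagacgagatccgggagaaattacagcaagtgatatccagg
The other sequences are the 250 bases before the annotated start of Add2 (GRCr8, chr4:120054628-120054877, plus strand) and of Sptb (GRCr8, chr6:101170279-101170528, minus strand), taken from RefSeq. Near its end the Sptb stretch holds the whole of a second Sptb probe, GATAA included. That probe belongs to another transcript record of Sptb, so these bases are transcribed in that record. Capitals mark GATAA, the core bound by GATA1, the factor that directs red cell development, or its reverse complement TTATC.
Add2 promoter: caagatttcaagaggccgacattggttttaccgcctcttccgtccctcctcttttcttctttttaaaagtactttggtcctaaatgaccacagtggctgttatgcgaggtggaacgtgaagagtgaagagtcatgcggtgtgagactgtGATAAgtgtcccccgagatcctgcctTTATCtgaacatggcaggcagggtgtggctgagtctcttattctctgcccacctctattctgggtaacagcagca
Sptb promoter: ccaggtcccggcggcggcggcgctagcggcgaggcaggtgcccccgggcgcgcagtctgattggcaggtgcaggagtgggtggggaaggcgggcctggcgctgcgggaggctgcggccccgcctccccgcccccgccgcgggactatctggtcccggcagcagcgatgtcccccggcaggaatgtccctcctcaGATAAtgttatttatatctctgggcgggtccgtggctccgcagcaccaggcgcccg
Of the 9 genes, 6 had such a sequence, and 3 of these (Add2, Sptb and Rhag) held GATAA on either strand, as did 23.5% of 33469 rat promoters of the same length. Add2 held it at 2 places, and they begin 101 and 75 bases before the start. CACCC, the core bound by KLF-type factors, was found on either strand in 4 of the 6 (Add2, Sptb, Tmod1 and Rhag) and in 49.2% of all promoters. Counted on either strand, a GATAA and a CACCC match can overlap by an end letter at most, and a match is a description of letters, not a site.

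**Figure D1:**
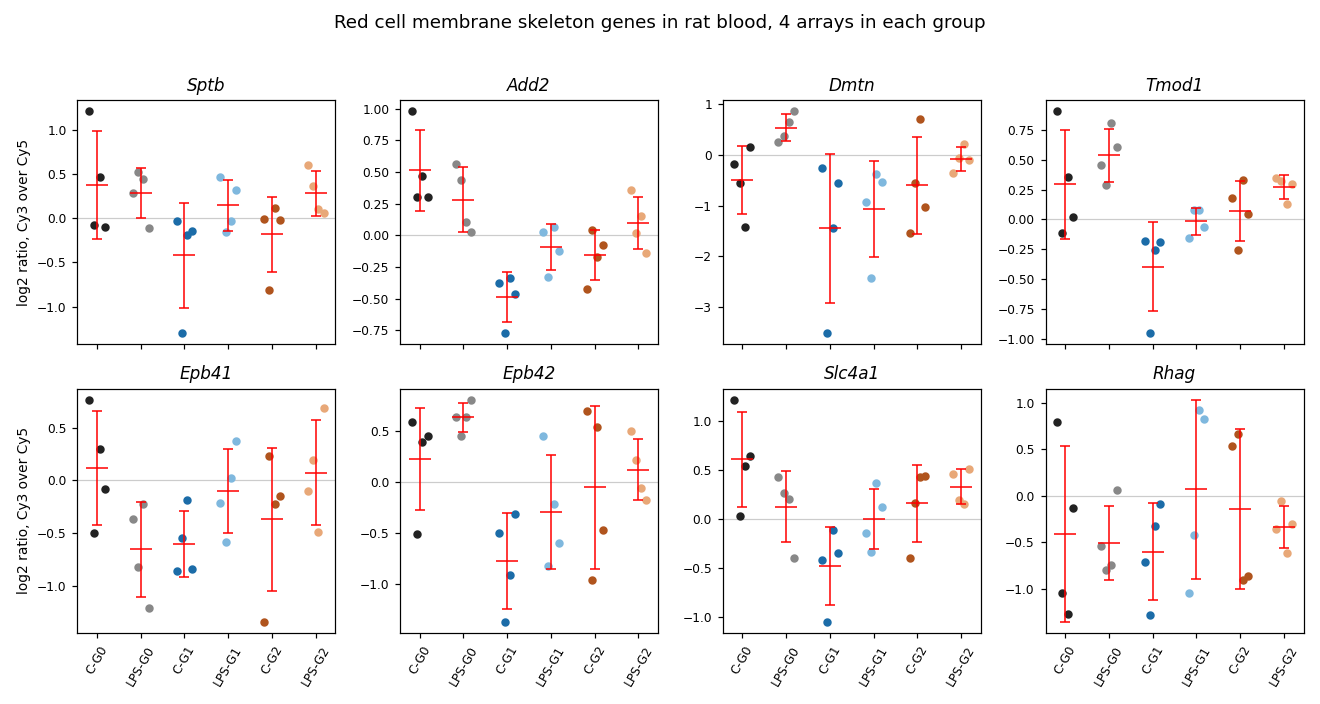
Log2 ratio of Cy3 (rat) over Cy5 (pool) for the main probe of each of the 8 genes in the 6 groups. Points are single arrays in replicate order, red bars give the mean ± SD of 4 arrays, and the vertical scale differs between genes. C-G1 had the lowest group mean in 7 of 8 genes, with 1 array (replicate 2) well below the others in Sptb, Dmtn and Tmod1.

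In all 8 genes the mean was lower in C-G1 than in C-G0, by 0.19 (Rhag) to 1.09 (Slc4a1) on the log2 scale, where 48.6% of all probes were lower, and the median difference was −0.87 against 0.02 over all 10708 probes. The arrays did not overlap in 3 of the 8 (Slc4a1, Add2 and Tmod1), against 3.97% of all probes lower without overlap. C-G1 had the lowest mean of the 6 groups in 7 genes and LPS-G0 in 1 (Epb41). The highest mean was that of C-G0 in 4 genes, of LPS-G0 in 3 and of LPS-G1 in 1. Groups that neighbour each other in this order overlapped in 38 of 40 pairs. The exceptions were Dmtn, between LPS-G0 and LPS-G2, and Tmod1, between LPS-G1 and C-G1. Since the C-G1 arrays took part in the choice of the genes, nothing is read from these differences. In that comparison 3 of all probes (0.028%) passed an adjusted p of 0.05, a share given as background only. Without C-G1 replicate 2 the median difference was −0.63, that of Dmtn was −0.26 and that of Rhag was 0.04. In bulk blood, fewer cells of a type and less RNA per cell cannot be told apart.

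Add2 encodes beta-adducin, which caps actin filaments at the junctions and recruits spectrin to them. In C-G0 the log2 ratios of its main probe were 0.98, 0.31, 0.47 and 0.30. In C-G1 they were −0.38, −0.77, −0.34 and −0.46. All C-G1 arrays lay below all C-G0 arrays, and the C-G1 mean of −0.49 ± 0.20 was the lowest of the 6 groups. The difference of −1.002 (SE 0.17) is a 2-fold lower level. Within slides 1, 2 and 3 it was −1.02, −1.03 and −0.76, which like the rest of this comparison is a description of the values Add2 was selected on. A second Add2 probe, from another transcript record, gave −0.91 (SE 0.22), also without overlap, and over the 24 arrays both probes correlated at r = 0.72. In C-G2 the main probe read −0.42, 0.04, −0.17 and −0.08, again below every C-G0 array, as were 1.29% of all probes. This difference of −0.67 (SE 0.17) was not called by limma (adjusted p = 0.168). The second probe gave −0.37 (SE 0.22, adjusted p = 0.478 by limma), with overlap. Without C-G0 replicate 4 the main probe was called at −0.74 (adjusted p = 0.0337 by limma), in a fit that called 353 of all 10708 probes in place of 3. The C-G0 arrays also took part in the choice of Add2, so nothing is read from its difference between C-G2 and C-G0.

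Among rats given LPS, Add2 read 0.56, 0.44, 0.10 and 0.03 in LPS-G0, and 0.03, −0.33, 0.07 and −0.12 in LPS-G1. The 2 groups overlapped, and the difference of −0.37 (SE 0.18) did not pass (adjusted p = 0.198 by limma). The second probe was lower by 0.61 (SE 0.22, adjusted p = 0.0982 by limma), with no overlap. In LPS-G2 the main probe read 0.36, 0.02, 0.15 and −0.14, which is −0.18 (SE 0.18) from LPS-G0 (adjusted p = 0.755 by limma). On the G1 diet LPS-G1 lay 0.40 (SE 0.17) above C-G1, without overlap, but this difference rests on the C-G1 arrays that had a part in the choice of Add2.

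In LPS-G1 vs. LPS-G0, 2 of the 8 genes were called by limma, Dmtn and Epb42, both lower in LPS-G1. Of all 10313 probes 921 (8.93%) were called in that comparison, and 8.39% were called lower. Single arrays decided that number. Among the LPS-G0 arrays, leaving out replicate 1 or 4 gave 0 called probes and leaving out replicate 2 gave 11. Among the LPS-G1 arrays, leaving out replicate 4 gave 0, replicate 2 gave 1 and replicate 3 gave 2. It was 3 with all 24 arrays in the fit and 1941 without C-G0 replicate 1. The median difference of the 8 genes was −0.26, against 0.06 over all probes, and 6 of 8 had a lower mean, as did 44.6% of all probes. The arrays did not overlap in 2 genes (Dmtn and Tmod1), both lower, against 14.6% of all probes.

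Dmtn encodes dematin, which bundles actin and links the junctions to the membrane. Its log2 ratios were 0.26, 0.38, 0.65 and 0.87 in LPS-G0. In LPS-G1 they were −0.93, −2.43, −0.37 and −0.53. Every LPS-G1 array was below every LPS-G0 array, and LPS-G1 replicate 2 was far below the rest. The difference was −1.60 (SE 0.38, adjusted p = 0.0289 by limma), a 3.04-fold lower level. This probe was dim, with 4 of 4 arrays of LPS-G0, 3 of 4 of LPS-G1 and 2 of 4 of C-G1 well above background. With normexp background correction and loess together the difference shrank to −0.74 and remained called (adjusted p = 0.0161 by limma). A second Dmtn probe was above background on only 2 of 24 arrays, 1 in C-G0 and 1 in LPS-G0.

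Epb42 encodes a skeletal protein that binds band 3 and ankyrin. It read 0.64, 0.45, 0.64 and 0.81 in LPS-G0, and 0.45, −0.83, −0.22 and −0.60 in LPS-G1. LPS-G0 was tight, whereas LPS-G1 replicate 1 reached the level of LPS-G0 replicate 2. The difference was −0.93 (SE 0.27, adjusted p = 0.0408 by limma), a 1.91-fold lower level. Within slides 1, 2 and 3 it was −0.09, −1.16 and −1.41, and that of Dmtn was −1.25, −2.05 and −1.40. With the slide as a block Dmtn had an adjusted p of 0.0499 and Epb42 of 0.0765 (limma). In C-G0 Epb42 read 0.58, −0.51, 0.39 and 0.45, and in C-G1 −0.51, −1.38, −0.92 and −0.32. With C-G0 replicate 2 among the C-G1 arrays, these groups overlapped.

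Both calls were lost without LPS-G0 replicates 1, 2 or 4 and without LPS-G1 replicates 2, 3 or 4, each left out alone, and that of Epb42 also without LPS-G0 replicate 3 or LPS-G2 replicate 4. With single arrays left out, the difference of Dmtn ranged from −1.84 to −1.15 (adjusted p up to 0.104 by limma) and that of Epb42 from −1.18 to −0.76 (adjusted p up to 0.138 by limma). When both LPS-G0 arrays with conflicting labels were left out they were −1.39 (adjusted p = 0.139 by limma) and −0.84 (adjusted p = 0.201 by limma).

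Tmod1 encodes tropomodulin, which caps the pointed end of the short actin filaments. It read 0.46, 0.29, 0.81 and 0.61 in LPS-G0, and −0.15, 0.08, 0.08 and −0.07 in LPS-G1. The groups did not overlap, and the difference of −0.55 (SE 0.19) did not pass (adjusted p = 0.0753 by limma). Without C-G0 replicate 1, which enters only through the shared estimate of the spread, it was called (adjusted p = 0.0128 by limma), as were 1941 of all probes. In LPS-G2 Tmod1 read 0.35, 0.32, 0.13 and 0.29, within the span from LPS-G1 to LPS-G0. In C-G1, where replicate 2 stood at −0.95, the other arrays read −0.18, −0.26 and −0.19.

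Sptb encodes beta-spectrin. It read 1.21, −0.08, 0.47 and −0.10 in C-G0, where replicate 1 was far above the rest, and −0.04, −1.30, −0.19 and −0.14 in C-G1. LPS-G0 (0.29, 0.52, 0.44 and −0.11) and LPS-G1 (0.46, −0.15, −0.04 and 0.32) overlapped, with a difference of −0.14 (SE 0.255, adjusted p = 0.734 by limma). A second Sptb probe rose clearly over background on 5 of 24 arrays only, was not tested and correlated with the first at r = 0.23. Its bases lie within the stretch shown above as the Sptb promoter.

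Slc4a1 encodes band 3, the membrane anchor of the skeleton. It read 1.22, 0.04, 0.55 and 0.65 in C-G0, and −0.41, −1.05, −0.12 and −0.34 in C-G1. These groups did not overlap, and the difference of −1.09 (SE 0.25) was the widest among the 8 genes in that comparison. Among rats given LPS it was within −0.12 (SE 0.235, adjusted p = 0.746 by limma) on the G1 diet and 0.21 (SE 0.235, adjusted p = 0.796 by limma) on the G2 diet of the level in LPS-G0.

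Epb41, whose product strengthens the binding of spectrin to actin, and Rhag, the Rh-associated glycoprotein of the membrane, were least like the others. Epb41 read 0.77, −0.50, 0.30 and −0.08 in C-G0, and −0.37, −0.82, −0.22 and −1.21 in LPS-G0. The difference was −0.78 (SE 0.30, adjusted p = 0.258 by limma), and the means in LPS-G1 (−0.10) and LPS-G2 (0.07) lay above LPS-G0 by 0.555 and 0.73 (adjusted p = 0.249 and 0.597 by limma). Rhag ranged widely within groups, from −1.28 to 0.80 in C-G0 and from −1.05 to 0.92 in LPS-G1. Over the 24 arrays the median correlation with the other 7 genes was 0.18 for Rhag and 0.22 for Epb41. It was between 0.52 (Dmtn) and 0.69 (Sptb) for the remaining 6.

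**Figure D2:**
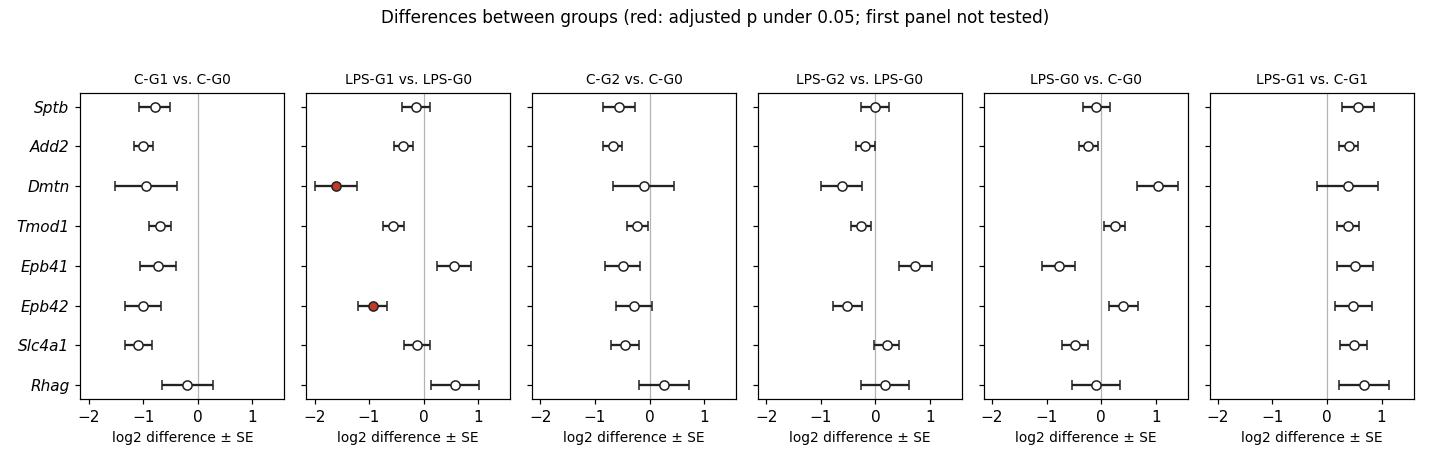
Difference in mean log2 ratio (points) with its standard error (bars) for each gene in 6 comparisons. Red points have an adjusted p under 0.05 in limma, and C-G1 vs. C-G0 carries no test. Points lie left of 0 for all 8 genes in C-G1 vs. C-G0, and the red points are Dmtn and Epb42 in LPS-G1 vs. LPS-G0.

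LPS by itself gave no call among the 8 genes on any diet. In LPS-G0 vs. C-G0, where 0.0097% of all probes were called, Dmtn was 1.03 (SE 0.38) higher with LPS (adjusted p = 0.244 by limma), without overlap, as were 3.82% of all probes. Dmtn read −0.17, −0.55, −1.42 and 0.16 in C-G0. The other differences ran from −0.78 (Epb41) to 0.41 (Epb42), and 5 of 8 were negative, against 46.5% of all probes. At an unadjusted p of 0.05, 2 genes passed (Dmtn higher, Epb41 lower), against 15.2% of all probes. Because the C-G0 arrays took part in the choice of Add2, this count is a description. In LPS-G1 vs. C-G1 all 8 means were higher with LPS, by a median of 0.48, where 45.7% of all probes were lower, and none was called (0.00934% of all probes were called). Add2 and Tmod1 were higher without overlap, as were 1.33% of all probes, and 2.81% of all probes had an unadjusted p under 0.05. That comparison shares the C-G1 arrays with the choice of the genes, and the low C-G1 level of Add2 favours a higher LPS-G1 value in advance. These values are therefore a description, and no member count at an unadjusted p is given. Without C-G1 replicate 2 the median was 0.29 and the difference of Dmtn was −0.31. In LPS-G2 vs. C-G2 none was called and none had an unadjusted p under 0.05, and limma called 0 of 10708 probes (0%), against 117 at an unadjusted p under 0.05 and 0 with Tukey's HSD. The difference of the LPS effect between the G1 diet and G0 was largest for Epb41 at 1.28 (SE 0.46), and no probe was called in it (0%). Over all probes 322 (3.01%) had an unadjusted p under 0.05. This difference also contains the C-G1 and C-G0 arrays used in the choice of the genes, so no member count is given for it. For the G2 diet 1 of the 8 had such a p (Epb41, 1.22, SE 0.46), against 5.57% of all probes, with no call (0%). As it holds the C-G0 arrays too, this count is not read as a result.

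No member was called on the G2 diet. In LPS-G2 vs. LPS-G0, limma called 0 of all 10313 probes (0%), against 849 (8.23%) at an unadjusted p under 0.05, which Epb41 alone of the 8 genes passed, and 0 with Tukey's HSD. Dmtn read −0.36, −0.06, 0.21 and −0.10 in LPS-G2, all below LPS-G0 (7.73% of all probes were lower without overlap), with a difference of −0.62 (SE 0.38, adjusted p = 0.625 by limma). In C-G2 vs. C-G0, where 0.028% of probes were called, 0 of 8 members were called and 7 of 8 means were lower, as were 47.3% of all probes. At an unadjusted p under 0.05 there was 1 (Add2), against 13.3% of all probes. It is not read as a result, because the C-G0 arrays took part in the choice of Add2. Whether the effects of G1 and G2 differ was not tested.

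Other red cell genes were read beside them. Of 23 further membrane genes, 17 were tested and 2 were called in LPS-G1 vs. LPS-G0, both lower, against 8.39% of all probes: Gypc (glycophorin C, which the Epb41 product binds, −1.05, SE 0.27, adjusted p = 0.0289 by limma) and Kel (the Kell antigen, −1.21, SE 0.33, adjusted p = 0.0356 by limma). Their list median was −0.16. Of 23 genes of the erythroid cytoplasm and nucleus that were tested, 5 were called, all lower, against the same 8.39% of all probes, with a list median of −0.52. All calls in these lists were lost where no probe was called. That was so after removal of replicate 1 or 4 of LPS-G0, of replicate 4 of LPS-G1, and of both LPS-G0 arrays of conflicting labels. It was also so with Cy3 alone, without a filter on dim probes and with Tukey's HSD. Among the 5 erythroid calls were Trim10 (−1.21, SE 0.32), Hemgn (−1.03, SE 0.22), and Klf1, the erythroid transcription factor (−0.81, SE 0.20), with limma's adjusted p between 0.0289 and 0.031. Alas2 stood at 0.02 (SE 0.17) and Hbb at 0.16 (SE 0.20), and neither was called.

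In C-G1 vs. C-G0 none of the 17 membrane and 23 erythroid genes was called. At an unadjusted p under 0.05, 6 membrane genes were lower and 1 higher, and 11 erythroid genes were lower and 0 higher, where 15.8% of all probes were lower and 12.1% higher. Alas2 stood at −0.18 (SE 0.17) and Hbb at 0.08 (SE 0.20). The list medians were −0.36 for the membrane genes and −0.70 for the erythroid genes. By array, the erythroid level was −0.01, −1.46, −0.43 and −0.06 in C-G1, and 0.41, −0.12, 0.18 and 0.19 in C-G0. That of the membrane genes was 0.03, −0.82, −0.45 and 0.15 in C-G1, and 0.30, 0.20, 0.02 and 0.21 in C-G0. Both lists were lowest in C-G1 replicate 2, then replicate 3, and the groups overlapped. Like the rest of this comparison, these counts are a description.

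The mean of the 8 genes, each centred on its mean over the 24 arrays, followed that of the erythroid list from array to array. The 8-gene level ran from −1.25 in C-G1 replicate 2 to 0.88 in C-G0 replicate 1, and on these arrays the erythroid level was −1.46 and 0.41. The correlation over 24 arrays was r = 0.88 (Spearman's rho 0.77), and r = 0.71 without the 2 arrays farthest from the median of the erythroid list, C-G1 replicate 2 and LPS-G1 replicate 2. These points share groups, slides and the pool, so the coefficients are descriptions. For the other membrane genes r was 0.78, and 0.50 without those same arrays.

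**Figure D3:**
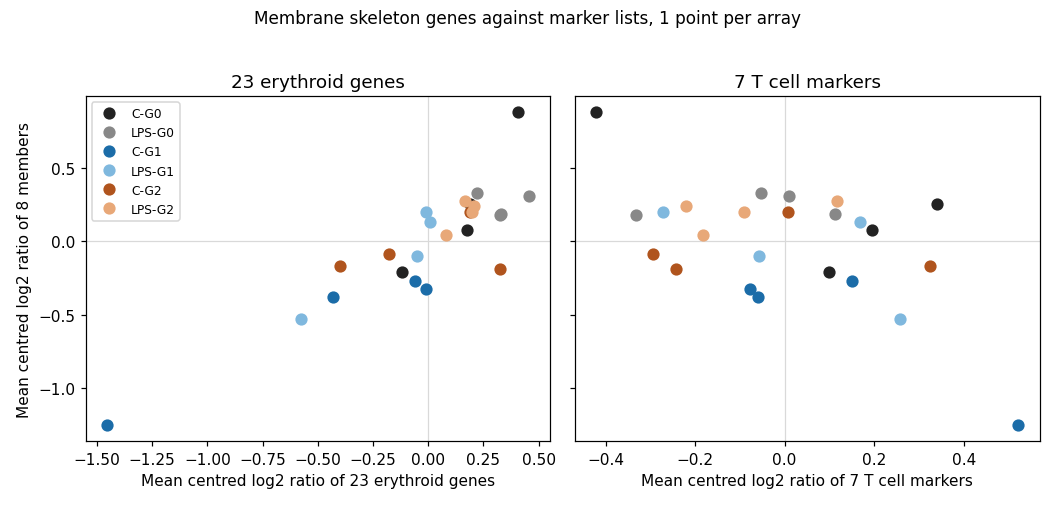
Mean log2 ratio of the 8 membrane skeleton genes against that of 23 erythroid genes (left) and of 7 T cell markers (right), every gene centred on its mean over 24 arrays, with 1 point per array coloured by group. On the left the points rise together (r = 0.88), with C-G1 replicate 2 lowest in both, and on the right the slope (r = −0.54) lies mainly in C-G1 replicate 2 and C-G0 replicate 1.

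Markers of other blood cells were followed in the same way, and their part in these values was not tested. The level of 9 platelet markers ran from −0.77 to 0.20 in C-G1 and from −0.34 to 0.36 in C-G0, and correlated with the 8 genes at r = 0.58, or 0.21 without C-G1 replicate 2. For 7 T cell markers r was −0.54, and −0.15 without C-G1 replicate 2 and C-G0 replicate 1. The coefficients were 0.15 for neutrophil, −0.18 for monocyte, −0.28 for B cell and −0.24 for NK cell markers. In C-G1 vs. C-G0, 5 of 7 NK cell markers had a higher mean, where 48.6% of all probes were lower, with a list median of 0.615 and 0 called. At an unadjusted p under 0.05 there were 3 higher and 1 lower, against 12.1% and 15.8% of all probes. The NK level was −0.945, 0.148, −0.142 and −0.344 in C-G0, and 0.061, −0.004, 0.284 and −0.476 in C-G1. These groups overlapped, and C-G0 replicate 1 was far below the rest. In LPS-G1 vs. LPS-G0 the platelet median was −0.08 and no marker of platelets, neutrophils, monocytes, T cells or B cells was called. Of 7 NK cell markers, 1 (Klrk1) was called lower, against 8.39% of all probes called lower and 8.93% called in all.

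By the pattern over the 24 arrays, the genes outside all lists that were most like the 8-gene mean were Myo5c (r = 0.919), Dyrk3 (r = 0.907), Rab3il1 (r = 0.901), Bcl2l1 (r = 0.901) and Foxk2 (r = 0.894), of 6320 candidates, of which 91 had r above 0.8. In LPS-G1 vs. LPS-G0 their differences were −0.81, −0.85, −1.07, −0.30 and −0.28. Within the set, the closest pair was Slc4a1 and Add2 (r = 0.82), followed by Epb42 and Tmod1 (r = 0.80), and the correlation within groups was 0.74 and 0.57.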

How the data were processed

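Log ratios and signals of 24 two-colour Agilent SurePrint G3 Rat arrays, 1 rat each, were used. Agilent Feature Extraction (10.10.1.1 per the file headers, 10.7.3.1 per the submitters' processing notes) had removed the background and applied a Lowess dye correction to each array. The deposited log10 values are Cy5 over Cy3, and those of the series table were identical in 1511424 of 1511424 cases. The deposited intensity of each channel is on a linear scale. Here the log10 ratio was turned to log2 of Cy3 over Cy5, outlier spots (679 to 1133 per array) were left out and spots of a probe were averaged. A level of a list is the mean of its genes, each centred over the 24 arrays.

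A probe was tested where some group had it well above background (Cy3) in each of its 4 rats, which left 10313 probes for the 16 arrays of C-G0 and the LPS groups (those of the study's analysis of variance) and 10708 for all 24. The fit of 16 arrays served the comparisons of LPS-G0 with C-G0 and of the other LPS groups with LPS-G0, and the fit of 24 served the rest. Linear models came from limma 3.58.1 (R 4.3.3, lmFit and eBayes, two-sided, Benjamini-Hochberg over all probes tested), and a call is an adjusted p under 0.05. The fit was tested on simulated data. Of 9 tested probes of the 8 genes, the main probe of a gene is the one with the brightest Cy3 signal.

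The members and lists were chosen with earlier results of these data known. The text names every member, list genes that were called (at most 4 per direction), the defining genes Alas2 and Hbb, and the 5 genes outside the lists most like the members. The markers of platelets and white cells are named by list. Some genes that this rule selects are not reported here. Alternatives were another background correction, Cy3 alone, other filters, blocks for slide or replicate number, and all 24 arrays or only the groups compared. Further ones were array weights, a variance trend, Tukey's HSD, the mean of a gene's probes and leaving out arrays. Tukey's HSD p-values over the groups of a fit were adjusted by Benjamini-Hochberg over all probes. No F-test preceded them, so this was not the study's whole procedure. The number of arrays limits the precision. Probe positions are on rn4, as in the files, and promoters on GRCr8.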

Additional observations from a re-analysis of the deposited data

Results flagged for a closer look

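Within groups of 4 arrays, 3 of 54 combinations of probe and group held 1 array whose gap to its nearest neighbour, divided by the whole range, was above Dixon's critical value. Chance alone flags a share of about 0.05 of such groups. Sptb read −1.30 in C-G1 replicate 2, with a gap of 0.874 of the range, while the other C-G1 arrays lay between −0.19 and −0.04. Sptb read −0.81 in C-G2 replicate 2 (gap 0.855), where the other C-G2 arrays lay between −0.02 and 0.11. Tmod1 read −0.95 in C-G1 replicate 2 (gap 0.901), the others being between −0.26 and −0.18. On C-G1 replicate 2 the erythroid list also stood lowest, at −1.46, and the level of platelet markers was −0.77.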

How the results depend on the processing

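In LPS-G1 vs. LPS-G0 the count of called members, 2 as reported, was 0 with Cy3 alone, without a filter on dim probes and with all 24 arrays. It was also 0 with Tukey's HSD adjusted over all probes, and with both LPS-G0 arrays of conflicting labels left out. It was 1 with probes above background on every array, where Dmtn was not tested, 1 with the slide as a block (336 of all 10313 probes were called there), and 4 with array weights, which added Tmod1 and Add2, where 2844 of all probes were called in place of 921. With single arrays left out it ranged from 0 to 3. C-G1 vs. C-G0 carries no test, so no count of called members is given for it under the alternatives. Over all 10708 probes, 963 were called there without C-G0 replicate 4, in place of 3. The median difference in C-G1 vs. C-G0 was −0.48 with array weights, against −0.87. In C-G2 vs. C-G0 the count of called members ranged from 0 to 1 with single arrays left out, the 1 being Add2, which was chosen with the C-G0 arrays in view. The median difference in LPS-G0 vs. C-G0, −0.09, ranged from −0.27 to 0.25, the highest value being that without C-G0 replicate 1. The median of the difference of the LPS effect between G1 and G0 was 0.24 with array weights, against 0.64. The cause of these shifts was not tested, save where fewer probes or arrays entered the fit.

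Replicate numbers were not taken as pairs, because the correlation of arrays with the same number was above 0.1 for every pair in none of the 7 comparisons (lowest −0.257). With a replicate block, 600 of all probes were called in C-G1 vs. C-G0 in place of 3, and LPS-G1 vs. LPS-G0 kept its 2 member calls. No result changed its direction while called. Of the results for single genes under the alternatives, 37 lost a call and 10 gained one. Another 8 stayed uncalled while their difference moved by more than the SD within groups. The remaining 2376 kept their side of the threshold. These numbers include C-G1 vs. C-G0, whose calls are not read. The dim probe of Dmtn and the 4 arrays per group limit what can be said.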
